A study of Mus musculus with 4 samples.

Results

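The ADAMTS proteases are secreted metalloproteinases with thrombospondin type 1 repeats that cut proteins of the extracellular matrix. The RNA of 10 of them, *Adamts1*, *Adamts2*, *Adamts4*, *Adamts5*, *Adamts6*, *Adamts7*, *Adamts9*, *Adamts10*, *Adamts12* and *Adamts15*, was followed through 4 RNA-seq libraries of mouse embryonic fibroblasts (MEF). The 10 were taken by symbol from a set list of genes, out of 20815 protein-coding genes that could be named in the table, and 9 of them passed the filter on low values described below. Libraries came from immortalized MEF of *Hmga2*+/+ and *Hmga2*-/- C57BL/6 embryos of day 15.5, grown from the body without head, limbs, tail and inner organs and starved in 1% fetal calf serum. MEF of each genotype were given either TGFB1 at 10 ng/ml for 24 h or water, and the latter are called Ctrl. HMGA2 is a chromatin protein that binds AT-rich DNA, and TGFB1 is a cytokine that makes fibroblasts lay down matrix. All 4 libraries therefore share the strain, the immortalization with SV40 and the starvation, and how many embryos or clones stand behind each line is not given in the sources used here.

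Values are RPKM, reads divided by transcript length and by the library's mapped reads, given for 1 transcript per gene, the one with the longest gene body. Each condition has 1 library, so differences could not be set against replicates and p-values are not given. Intervals in brackets are 95% intervals from the reads behind the values, and they cover counting error only. The libraries held between 56140000 and 57300000 mapped reads, and 3 reads on a transcript of 5000 bases equal 0.0105 to 0.0107 RPKM. A gene is said to rise or fall where 2 libraries differed at least 1.5-fold (0.58 on the log2 scale), with 0 RPKM set to 0.001. This was read for the 12938 protein-coding genes that reached 0.1 RPKM in any library. *Hmga2* had 14.8 and 40.7 RPKM in the *Hmga2*+/+ Ctrl and TGFB1 libraries and 0 reads in both *Hmga2*-/- libraries. *Ccn2*, a matricellular gene that TGFB1 is known to induce, had 13.2 and 173 RPKM in *Hmga2*+/+ Ctrl and TGFB1 and 24.9 and 359 RPKM in *Hmga2*-/- Ctrl and TGFB1. All 9 fibroblast markers listed were detected, with a summed level of 1875 to 2264 RPKM, although 4 of them (*Pdgfra*, *Dcn*, *Lum* and *Col3a1*) fell on TGFB1 in both genotypes. Markers of skeletal muscle summed to at most 0.052 RPKM and the 5 blood markers to between 1.26 and 1.63 RPKM, nearly all of it *Cd68*, with the globins *Hbb-bs* and *Hba-a1* at 0. Epithelial markers summed to 0.403 to 1.04 RPKM.

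ADAMTS enzymes are made as inactive precursors, which proprotein convertases such as furin cut, and their thrombospondin repeats are sugar-modified before secretion. They are held in check by TIMP3 and cleared from the cell surface by the receptor LRP1. They fall into groups by substrate. ADAMTS1, 4, 5, 9 and 15 cleave versican, aggrecan and related proteoglycans, ADAMTS2 removes the N-terminal propeptide of fibrillar procollagens, ADAMTS7 and 12 cleave cartilage oligomeric matrix protein (COMP), and ADAMTS6 and 10 act on or bind fibrillin microfibrils. In fibroblasts they are part of the machinery that remodels the matrix laid down around the cells.

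For 4 of the 10 genes RefSeq promoters of the GRCm38.p6 build were at hand. Those of *Adamts1* and *Adamts9*, the pair with the lowest TGFB1 to Ctrl ratios among the 9 genes that passed the filter, and of *Adamts12*, the one with the highest, are shown because these genes moved in opposite directions. Each line is the 250 bases before the RefSeq start site, read 5′ to 3′ on the strand of the gene, and capitals mark the motif TATAAA. The *Adamts1* window is chr16:85803114-85803363 on the minus strand, that of *Adamts9* chr6:92943535-92943784 on the minus strand, and that of *Adamts12* chr15:11064523-11064772 on the plus strand.
*Adamts1*: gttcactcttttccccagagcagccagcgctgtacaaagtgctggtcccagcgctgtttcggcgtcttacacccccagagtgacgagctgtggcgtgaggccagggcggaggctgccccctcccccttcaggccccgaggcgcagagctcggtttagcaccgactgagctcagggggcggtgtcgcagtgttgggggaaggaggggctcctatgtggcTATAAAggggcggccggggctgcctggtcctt
*Adamts9*: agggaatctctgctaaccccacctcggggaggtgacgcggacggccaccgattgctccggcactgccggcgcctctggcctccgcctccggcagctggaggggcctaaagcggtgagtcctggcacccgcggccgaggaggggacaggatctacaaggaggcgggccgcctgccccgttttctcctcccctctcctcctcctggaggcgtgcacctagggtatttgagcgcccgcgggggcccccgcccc
*Adamts12*: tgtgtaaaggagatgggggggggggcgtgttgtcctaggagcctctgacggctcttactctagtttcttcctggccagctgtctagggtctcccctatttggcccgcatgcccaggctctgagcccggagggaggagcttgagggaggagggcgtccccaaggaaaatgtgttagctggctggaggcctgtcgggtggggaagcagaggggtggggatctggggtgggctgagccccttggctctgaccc
The 3 windows were rich in G and C, at 65.6% in *Adamts1*, 71.2% in *Adamts9* and 63.2% in *Adamts12*, whereas the median of 32851 RefSeq promoters was 52.4%. The *Adamts2* window, not printed, stood at 78.0%, and 1.93% of promoters had a higher share. *Adamts1* had TATAAA starting 32 bases before the start site, a motif that 12.4% of all promoters hold on either strand, and the other 3 windows had none. Other motifs searched on both strands were CAGACA, a SMAD-binding sequence held by 17.1% of all promoters, the longer SMAD box GTCTAGAC, held by 0.167%, the AP-1 site TGANTCA, held by 6.75%, and the TEAD site GGAATG, held by 12.6%. None of these letters occurred in the 4 windows. The longest run of A and T was 6 bases in *Adamts1*, 2 in *Adamts2*, and 5 in both *Adamts9* and *Adamts12*.

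In untreated MEF the family was dominated by *Adamts1*. The summed level of the 10 genes was 124.4 RPKM in *Hmga2*+/+ Ctrl and 116.5 RPKM in *Hmga2*-/- Ctrl, and *Adamts1* made up 62.4% and 57.1% of it. *Adamts5* came next with 19.5% and 23.9%. Among the 12938 genes, 247 had a higher RPKM than *Adamts1* in *Hmga2*+/+ Ctrl and 343 in *Hmga2*-/- Ctrl, so it was among the more abundant transcripts of these cells. On TGFB1 the sum was 40.6 RPKM for *Hmga2*+/+ MEF and 44.8 RPKM for *Hmga2*-/- MEF, and *Adamts1* held 38.2% and 28.2% of it, with 2770 and 3515 genes above it. The share of *Adamts12* was 1.65% in *Hmga2*+/+ Ctrl, 11.7% in *Hmga2*+/+ TGFB1, 2.12% in *Hmga2*-/- Ctrl and 20.2% in *Hmga2*-/- TGFB1. *Adamts6* likewise held 2.20% and 2.56% of the sum in the Ctrl libraries and 12.3% and 15.1% in the TGFB1 libraries.

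**Figure D1:**
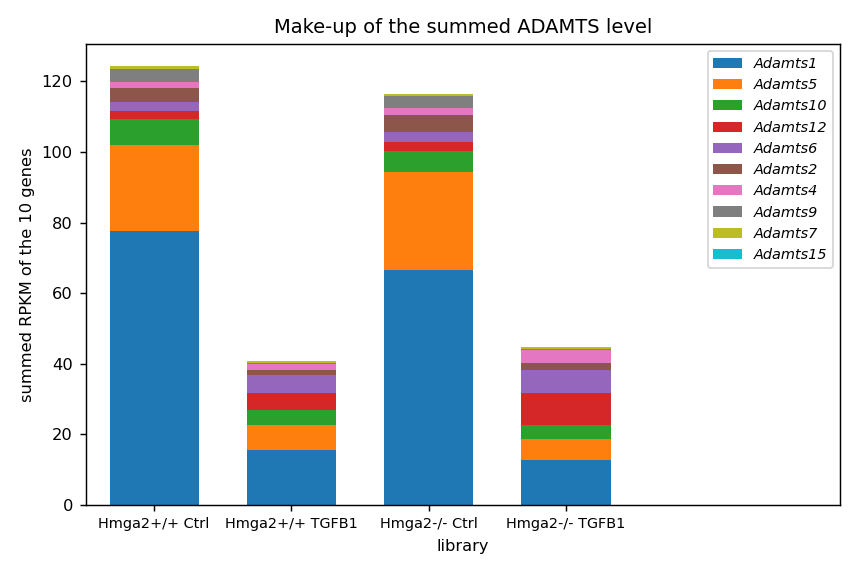
Summed RPKM of the 10 ADAMTS genes in each of the 4 libraries (bars starting at 0, x axis), stacked by gene. The bars stand at 124.4, 40.6, 116.5 and 44.8 RPKM in *Hmga2*+/+ Ctrl, *Hmga2*+/+ TGFB1, *Hmga2*-/- Ctrl and *Hmga2*-/- TGFB1, and the *Adamts1* and *Adamts5* segments account for most of the difference between Ctrl and TGFB1.

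The order of the levels changed with treatment below *Adamts1*, which was first in all 4 libraries. In *Hmga2*+/+ Ctrl the order from the top was *Adamts1*, *Adamts5*, *Adamts10*, *Adamts2*, *Adamts9*, *Adamts6*, *Adamts12*, *Adamts4*, *Adamts7* and *Adamts15*, where *Adamts2* and *Adamts9*, and likewise *Adamts12* and *Adamts4*, did not differ beyond counting error. In *Hmga2*-/- Ctrl the order was the same and each neighbouring pair differed beyond counting error. In *Hmga2*+/+ TGFB1 *Adamts5* was followed by *Adamts6*, *Adamts12* and *Adamts10*, and neither *Adamts6* and *Adamts12*, nor *Adamts12* and *Adamts10*, nor *Adamts7* and *Adamts9* differed beyond counting error. In *Hmga2*-/- TGFB1 *Adamts12* was second, followed by *Adamts6* and then *Adamts5*, and *Adamts4* and *Adamts10* did not differ beyond counting error. *Adamts15* was last throughout. These orders hold for the reported transcripts. The place of *Adamts9* depended on that choice, since its 4 transcripts ranged from 0.844 to 9.74 RPKM in *Hmga2*+/+ Ctrl.

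**Figure D2:**
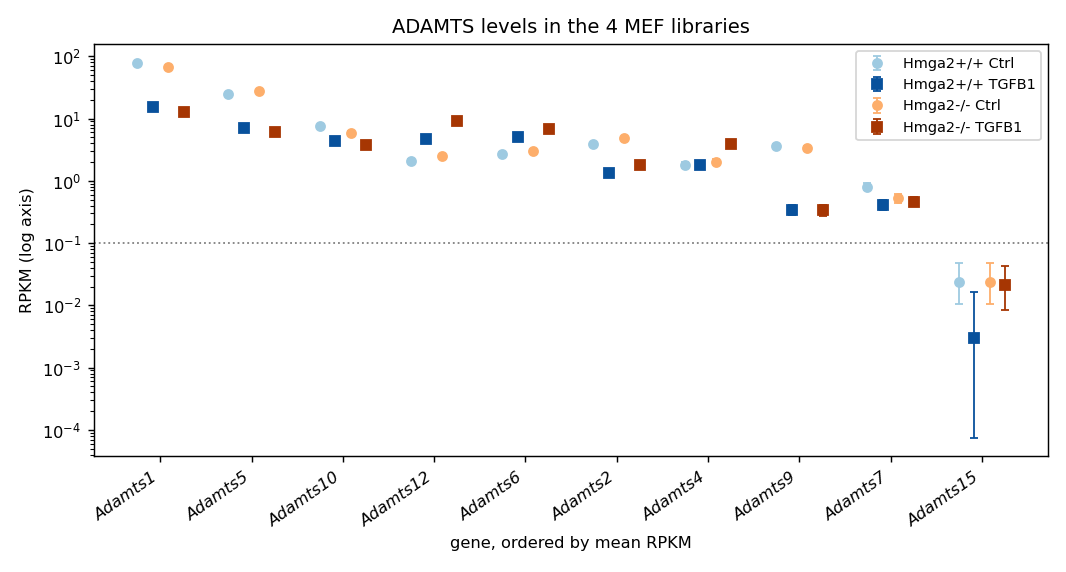
RPKM (y axis, log scale) of the 10 ADAMTS genes (x axis, ordered by mean RPKM) in the 4 libraries, 1 point per library, with exact 95% counting intervals as bars and the filter of 0.1 RPKM as a dotted line. *Adamts1* stands highest in every library, from 12.6 to 77.6 RPKM, and *Adamts15* lies below the dotted line in all 4.

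The first question was how TGFB1 moved these genes in MEF that have *Hmga2*. Of the 9 genes that passed the filter, 2 rose (*Adamts6* and *Adamts12*) and 6 fell (*Adamts1*, *Adamts2*, *Adamts5*, *Adamts7*, *Adamts9* and *Adamts10*), and *Adamts4* did neither. Among all 12938 genes 12.4% rose and 21.9% fell. The median log2 ratio of the 9 genes was -0.98, and that of all genes was -0.08. In *Hmga2*-/- MEF 3 of the 9 rose (*Adamts4*, *Adamts6* and *Adamts12*) and 5 fell (*Adamts1*, *Adamts2*, *Adamts5*, *Adamts9* and *Adamts10*), beside 14.0% and 20.3% of all genes. The median there was -0.64 for the 9 genes and -0.03 for all genes. Thus 2 genes rose and 5 fell in both genotypes. The share of all genes that rose or fell in both is not given here, so these 2 counts have no background beside them. In a bulk library, fewer cells that express a gene and less RNA per cell cannot be told apart.

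**Figure D3:**
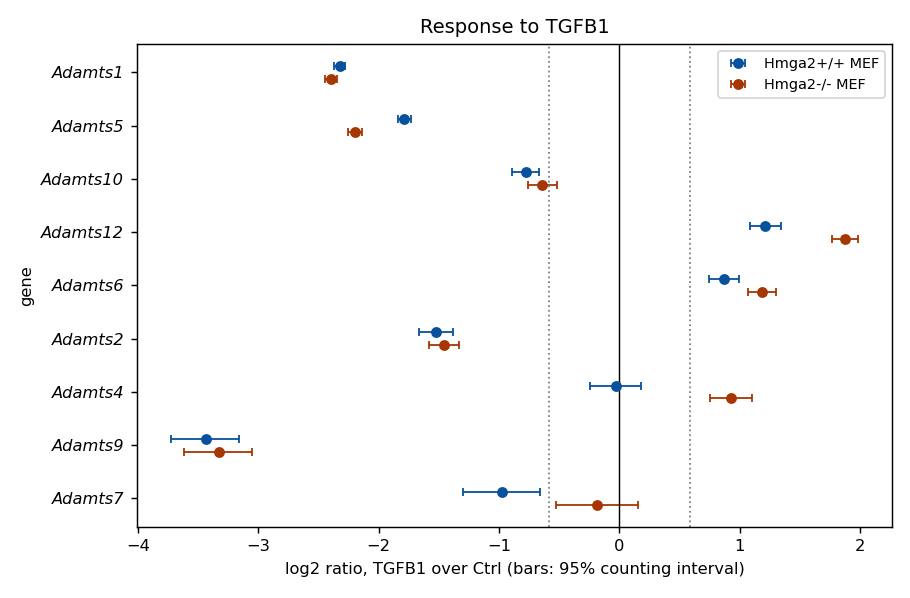
Log2 ratio of TGFB1 over Ctrl (x axis) for the 9 ADAMTS genes that passed the filter (y axis), 1 point per genotype, with 95% counting intervals as bars, a solid line at 0 and dotted lines at 1.5-fold. *Adamts9*, *Adamts1*, *Adamts5*, *Adamts2* and *Adamts10* lie left of the dotted line in both genotypes, and *Adamts6* and *Adamts12* lie to the right of it in both.

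The proteoglycan-cleaving enzymes held most of the decrease. Their summed level was 107.4 RPKM in *Hmga2*+/+ Ctrl, 24.7 RPKM in *Hmga2*+/+ TGFB1, 99.7 RPKM in *Hmga2*-/- Ctrl and 22.9 RPKM in *Hmga2*-/- TGFB1. *Adamts1*, a protease of versican and aggrecan that is also known to restrain blood vessel growth, lies at chr16:85793828-85803113 (mm10, minus strand). It had 77.6 RPKM (21204 reads) in *Hmga2*+/+ Ctrl, 15.5 RPKM (4328 reads) in *Hmga2*+/+ TGFB1, 66.5 RPKM (18325 reads) in *Hmga2*-/- Ctrl and 12.6 RPKM (3503 reads) in *Hmga2*-/- TGFB1. Both TGFB1 libraries were thus far below both Ctrl libraries. The fall was 5.00-fold in *Hmga2*+/+ MEF, a log2 ratio of -2.32 [-2.37, -2.28], and 5.26-fold in *Hmga2*-/- MEF, a log2 ratio of -2.40 [-2.45, -2.34]. In *Hmga2*+/+ MEF 276 genes (2.13%) had a lower log2 ratio, and in *Hmga2*-/- MEF 269 (2.08%) had.

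*Adamts9*, a protease of versican, had the lowest log2 ratio of the 9 genes that passed the filter. It had 3.63 RPKM (1218 reads) in *Hmga2*+/+ Ctrl, 0.336 RPKM (115 reads) in *Hmga2*+/+ TGFB1, 3.36 RPKM (1138 reads) in *Hmga2*-/- Ctrl and 0.335 RPKM (114 reads) in *Hmga2*-/- TGFB1. The genotypes stood close together under each treatment, and TGFB1 separated the libraries. The fall was 10.8-fold in *Hmga2*+/+ MEF (log2 -3.43 [-3.72, -3.16]) and 10.0-fold in *Hmga2*-/- MEF (log2 -3.33 [-3.62, -3.05]), with 85 genes (0.657%) and 111 genes (0.858%) lower still. The reported transcript (chr6:92772699-92901441, minus strand) begins downstream of the RefSeq start site. Of the 4 annotated transcripts, the short one of 1335 bases that begins nearest that site, at 92943478, had 9.74 RPKM in *Hmga2*+/+ Ctrl, 0.941 RPKM in *Hmga2*+/+ TGFB1, 9.29 RPKM in *Hmga2*-/- Ctrl and 0.789 RPKM in *Hmga2*-/- TGFB1. All 4 transcripts fell in both genotypes, with log2 ratios from -3.43 to -3.15 in *Hmga2*+/+ and from -3.56 to -2.85 in *Hmga2*-/- MEF.

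*Adamts5*, the main aggrecan-cleaving enzyme of mouse cartilage, lies at chr16:85858157-85901125 on the same strand. Its level was 24.3 RPKM (11037 reads) in *Hmga2*+/+ Ctrl, 7.05 RPKM (3269 reads) in *Hmga2*+/+ TGFB1, 27.8 RPKM (12724 reads) in *Hmga2*-/- Ctrl and 6.06 RPKM (2790 reads) in *Hmga2*-/- TGFB1. Both TGFB1 libraries were below both Ctrl libraries, and the *Hmga2*-/- libraries held the highest and the lowest value. The fall was 3.45-fold in *Hmga2*+/+ MEF (log2 -1.79 [-1.84, -1.73]) and 4.59-fold in *Hmga2*-/- MEF (log2 -2.20 [-2.26, -2.14]). *Adamts4* (chr1:171250422-171259922, plus strand), another aggrecan-cleaving enzyme, stood apart from the rest of its group. It had 1.81 RPKM (372 reads) in *Hmga2*+/+ Ctrl, 1.78 RPKM (372 reads) in *Hmga2*+/+ TGFB1, 2.03 RPKM (421 reads) in *Hmga2*-/- Ctrl and 3.87 RPKM (805 reads) in *Hmga2*-/- TGFB1. The library of treated *Hmga2*-/- MEF was the high one of the 4. The log2 ratio was -0.03 [-0.24, 0.18] in *Hmga2*+/+ MEF, and *Adamts4* rose 1.90-fold in *Hmga2*-/- MEF (log2 0.93 [0.76, 1.10]). *Adamts15* (chr9:30899155-30922452, minus strand), which also cleaves versican, was nearly silent, with 8 reads (0.024 RPKM), 1 read (0.003 RPKM), 8 reads (0.024 RPKM) and 7 reads (0.021 RPKM) in *Hmga2*+/+ Ctrl, *Hmga2*+/+ TGFB1, *Hmga2*-/- Ctrl and *Hmga2*-/- TGFB1. It did not pass the filter. The log2 ratio from 8 reads to 1 read in *Hmga2*+/+ MEF had a counting interval of [-8.50, -0.13], and that of *Hmga2*-/- MEF was -0.19 [-1.90, 1.46].

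*Adamts1* and *Adamts5* are neighbours on chromosome 16, transcribed from the same strand 55043 bases apart, with 1 annotated gene between them (*4930556C24Rik*). Of 4 further neighbours, chosen after their values were seen, 1 fell in *Hmga2*+/+ MEF and none in *Hmga2*-/- MEF. *App*, the amyloid precursor protein gene, had a log2 ratio of -0.36 in *Hmga2*+/+ MEF and -0.09 in *Hmga2*-/- MEF, and *Ltn1*, a ubiquitin ligase of the ribosome, had 0.17 and 0.10. *Cyyr1* was low, at 0.068 RPKM in *Hmga2*+/+ Ctrl, 0.133 RPKM in *Hmga2*+/+ TGFB1, 0.075 RPKM in *Hmga2*-/- Ctrl and 0.171 RPKM in *Hmga2*-/- TGFB1. These values rest on 9, 18, 10 and 23 reads, and the log2 ratios were 0.97 [-0.26, 2.31] in *Hmga2*+/+ MEF and 1.19 [0.07, 2.43] in *Hmga2*-/- MEF. *N6amt1*, a methyltransferase gene, fell in *Hmga2*+/+ MEF (log2 -0.79) and had a log2 ratio of -0.28 in *Hmga2*-/- MEF.

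*Adamts2*, the procollagen N-proteinase of the 10, lies at chr11:50602085-50807573 on the plus strand. It had 3.86 RPKM (1566 reads) in *Hmga2*+/+ Ctrl, 1.34 RPKM (556 reads) in *Hmga2*+/+ TGFB1, 4.85 RPKM (1984 reads) in *Hmga2*-/- Ctrl and 1.77 RPKM (728 reads) in *Hmga2*-/- TGFB1. It fell 2.87-fold in *Hmga2*+/+ MEF (log2 -1.52 [-1.67, -1.38]) and 2.74-fold in *Hmga2*-/- MEF (log2 -1.46 [-1.58, -1.33]). The level was somewhat higher in *Hmga2*-/- than in *Hmga2*+/+ MEF under either treatment, by less than 1.5-fold. Of the 6 procollagens listed as its possible substrates, 2 rose and 1 fell in *Hmga2*+/+ MEF, and 3 rose and 1 fell in *Hmga2*-/- MEF. *Col1a1* had 325 and 363 RPKM in *Hmga2*+/+ Ctrl and TGFB1 and 272 and 363 RPKM in *Hmga2*-/- Ctrl and TGFB1, and did not pass 1.5-fold. *Col5a1* and *Col5a2* rose in both genotypes, and *Col3a1* fell in both, with log2 ratios of -0.70 and -0.75.

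The 2 COMP-cleaving enzymes moved apart from each other. *Adamts12* (chr15:11064790-11346867, plus strand) had 2.05 RPKM (712 reads) in *Hmga2*+/+ Ctrl, 4.76 RPKM (1687 reads) in *Hmga2*+/+ TGFB1, 2.46 RPKM (863 reads) in *Hmga2*-/- Ctrl and 9.04 RPKM (3184 reads) in *Hmga2*-/- TGFB1. The treated libraries were above the Ctrl libraries in both genotypes, and the treated *Hmga2*-/- library was the highest. It rose 2.32-fold in *Hmga2*+/+ MEF (log2 1.22 [1.09, 1.34]) and 3.67-fold in *Hmga2*-/- MEF (log2 1.88 [1.77, 1.99]), and 294 genes (2.27%) had a higher log2 ratio in the latter. *Adamts7* (chr9:90162978-90200102, plus strand) was low, with 0.803 RPKM (239 reads) in *Hmga2*+/+ Ctrl, 0.408 RPKM (124 reads) in *Hmga2*+/+ TGFB1, 0.527 RPKM (158 reads) in *Hmga2*-/- Ctrl and 0.464 RPKM (140 reads) in *Hmga2*-/- TGFB1. The library of untreated *Hmga2*+/+ MEF was the high one of the 4. *Adamts7* fell 1.97-fold in *Hmga2*+/+ MEF (log2 -0.98 [-1.30, -0.66]), and its log2 ratio in *Hmga2*-/- MEF was -0.18 [-0.52, 0.15]. *Comp*, which encodes their shared substrate, had 0.343 RPKM in *Hmga2*+/+ Ctrl, 0.614 RPKM in *Hmga2*+/+ TGFB1, 0.754 RPKM in *Hmga2*-/- Ctrl and 0.934 RPKM in *Hmga2*-/- TGFB1.

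The fibrillin-associated pair also split. *Adamts6* (chr13:104287873-104494763, plus strand) had 2.73 RPKM (762 reads) in *Hmga2*+/+ Ctrl, 5.00 RPKM (1422 reads) in *Hmga2*+/+ TGFB1, 2.98 RPKM (838 reads) in *Hmga2*-/- Ctrl and 6.77 RPKM (1915 reads) in *Hmga2*-/- TGFB1. It rose 1.83-fold in *Hmga2*+/+ MEF (log2 0.87 [0.74, 1.00]) and 2.27-fold in *Hmga2*-/- MEF (log2 1.18 [1.07, 1.30]). *Adamts10* (chr17:33524196-33553782, plus strand) encodes a fibrillin-1-binding protease whose human counterpart is mutated in Weill-Marchesani syndrome. It had 7.56 RPKM (1738 reads) in *Hmga2*+/+ Ctrl, 4.41 RPKM (1035 reads) in *Hmga2*+/+ TGFB1, 5.92 RPKM (1373 reads) in *Hmga2*-/- Ctrl and 3.80 RPKM (887 reads) in *Hmga2*-/- TGFB1. It fell 1.71-fold in *Hmga2*+/+ MEF (log2 -0.78 [-0.89, -0.67]) and 1.56-fold in *Hmga2*-/- MEF (log2 -0.64 [-0.76, -0.52]), and all 11 annotated transcripts met the threshold in both genotypes. With 1 added to every RPKM the *Hmga2*-/- value was -0.53, short of the threshold. The pair summed to 10.3 RPKM in *Hmga2*+/+ Ctrl, 9.41 RPKM in *Hmga2*+/+ TGFB1, 8.90 RPKM in *Hmga2*-/- Ctrl and 10.6 RPKM in *Hmga2*-/- TGFB1. *Adamts10* was the higher of the pair in both Ctrl libraries and *Adamts6* in both TGFB1 libraries.

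The second question was whether the level of these genes depended on *Hmga2*. In untreated MEF none of the 9 genes was at least 1.5-fold higher in *Hmga2*-/- than in *Hmga2*+/+ MEF and 1 was lower, *Adamts7*, by 1.52-fold (log2 -0.61 [-0.91, -0.31]). Of all genes 5.12% were higher and 4.63% lower. The *Adamts7* value lay just past the threshold, and 4 of its 5 annotated transcripts passed it. On TGFB1, 2 of the 9 were higher in *Hmga2*-/- MEF and none was lower, beside 6.52% higher and 4.95% lower of all genes. *Adamts4* was 2.18-fold higher (log2 1.12 [0.94, 1.30]), a log2 ratio exceeded by 250 genes (1.93%), and *Adamts12* was 1.90-fold higher (log2 0.93 [0.84, 1.01]), exceeded by 382 genes (2.95%). Some markers of other cells were also higher in *Hmga2*-/- MEF. Smooth muscle markers, mostly *Cnn1*, summed to 1.00 RPKM in *Hmga2*+/+ Ctrl, 1.48 RPKM in *Hmga2*+/+ TGFB1, 2.33 RPKM in *Hmga2*-/- Ctrl and 3.53 RPKM in *Hmga2*-/- TGFB1, with *Myh11* and *Des* at most 0.054 RPKM. Endothelial markers, mostly *Kdr* and *Tek*, summed to 3.89, 4.86, 7.12 and 8.14 RPKM in the same order. Epithelial markers were lower in *Hmga2*-/- MEF under both treatments, at 0.718, 1.04, 0.403 and 0.83 RPKM in that order. Chondrocyte markers were lower in *Hmga2*-/- MEF in Ctrl only, at 3.40, 6.02, 2.09 and 6.21 RPKM. The part of any of these cells in the ADAMTS values was not tested. The medians of the 9 genes were 0.13 in Ctrl and 0.19 on TGFB1, against -0.02 and 0.04 for all genes. Differences smaller than 1.5-fold were beyond counting error for several abundant genes. *Adamts1*, for example, was lower in *Hmga2*-/- MEF by a log2 ratio of -0.22 [-0.25, -0.19] in Ctrl and -0.30 [-0.36, -0.23] on TGFB1, and the variation between cultures that such values would have to be set against was not measured.

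**Figure D4:**
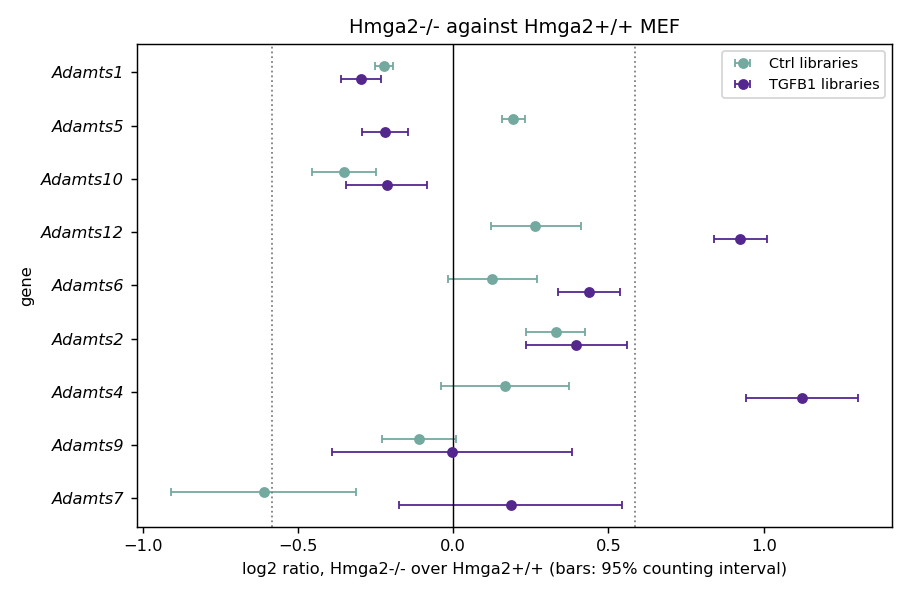
Log2 ratio of *Hmga2*-/- over *Hmga2*+/+ MEF (x axis) for the 9 ADAMTS genes that passed the filter (y axis), 1 point for Ctrl and 1 for TGFB1, with 95% counting intervals as bars, a solid line at 0 and dotted lines at 1.5-fold. The TGFB1 points of *Adamts4* and *Adamts12*, at 1.12 and 0.93, lie right of the dotted line, and the Ctrl point of *Adamts7*, at -0.61, lies just left of it.

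The response to TGFB1 itself was compared between the genotypes as the log2 ratio in *Hmga2*-/- minus that in *Hmga2*+/+ MEF. For 3 of the 9 genes this difference was at least 1.5-fold on the higher side, and for none on the lower side, while 5.87% of all genes were on the higher and 4.72% on the lower side. The 3 were *Adamts4* with 0.96 [0.69, 1.22], *Adamts7* with 0.79 [0.34, 1.25] and *Adamts12* with 0.66 [0.49, 0.83]. They got there in different ways, since *Adamts12* rose in both genotypes, *Adamts4* passed the threshold in *Hmga2*-/- MEF and *Adamts7* passed it, downwards, in *Hmga2*+/+ MEF. With 1 added to every RPKM the *Adamts7* difference was 0.30 and its *Hmga2*+/+ ratio -0.36, both short of the threshold, and a filter of at least 1 RPKM removed the gene. The difference was 0.31 [0.14, 0.49] for *Adamts6* and -0.41 [-0.50, -0.33] for *Adamts5*, both under 1.5-fold. It was -0.07 [-0.14, -0.004] for *Adamts1*, and for *Adamts2*, *Adamts9* and *Adamts10* the counting interval held 0. The median difference was 0.14 for the 9 genes and 0.05 for all genes. Genotype differences on TGFB1 and differences of response share libraries and are not separate measurements.

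The 10 genes had 33 annotated transcripts in the table, and *Adamts1* and *Adamts5* had 1 each. For the 9 genes that passed the filter, every transcript of a gene met the same side of the threshold on TGFB1 in both genotypes. For *Adamts12*, 3 transcripts had log2 ratios of 1.08 to 1.22 in *Hmga2*+/+ and 1.77 to 1.88 in *Hmga2*-/- MEF, and for *Adamts4*, 2 transcripts had -0.04 to -0.03 and 0.89 to 0.93. Transcripts of one gene can share exons and reads. No other annotated gene overlaps any of the 10 on the same strand. On the other strand *Tbc1d2b* overlaps *Adamts7*, and 3 genes each overlap *Adamts2* and *Adamts9*. Reads were counted by strand.

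Of the other ADAMTS genes, 9 were in the table and 8 passed the filter, of which 4 rose and 3 fell in each genotype. Their median log2 ratios were 0.261 in *Hmga2*+/+ and 0.565 in *Hmga2*-/- MEF, beside -0.98 and -0.64 for the 9 members. These medians weigh each gene alike, including the low genes named below. The summed level of the other ADAMTS genes was lower on TGFB1, as was that of the members. It was 6.64 RPKM in *Hmga2*+/+ Ctrl, 3.59 RPKM in *Hmga2*+/+ TGFB1, 3.66 RPKM in *Hmga2*-/- Ctrl and 2.99 RPKM in *Hmga2*-/- TGFB1. *Adamts3*, which like *Adamts2* is a procollagen N-proteinase, had 4.12 RPKM in *Hmga2*+/+ Ctrl, 1.57 RPKM in *Hmga2*+/+ TGFB1, 1.48 RPKM in *Hmga2*-/- Ctrl and 0.398 RPKM in *Hmga2*-/- TGFB1. It fell on TGFB1 in both genotypes and was lower in *Hmga2*-/- MEF, by 2.79-fold in Ctrl and 3.93-fold on TGFB1. *Adamts14*, the remaining procollagen N-proteinase, also fell in both genotypes (log2 -1.46 and -1.62), so all 3 genes of that activity fell. *Adamts19* had 0.663 RPKM in *Hmga2*+/+ Ctrl, 0.079 RPKM in *Hmga2*+/+ TGFB1, 0.627 RPKM in *Hmga2*-/- Ctrl and 0.049 RPKM in *Hmga2*-/- TGFB1. *Adamts8*, *Adamts16* and *Adamts17* were low and rose in both genotypes. *Adamts8* had 8 reads in *Hmga2*+/+ Ctrl, 89 in *Hmga2*+/+ TGFB1, 16 in *Hmga2*-/- Ctrl and 206 in *Hmga2*-/- TGFB1, which is 11.0-fold (log2 3.46 [2.41, 4.70]) and 12.8-fold (log2 3.68 [2.94, 4.51]). Of 6 ADAMTS-like and related genes that passed the filter, whose proteins lack the protease domain, none rose, 5 fell in *Hmga2*+/+ and 4 in *Hmga2*-/- MEF. Their median log2 ratios were -1.19 and -1.37, below those of the members, so a low median was not particular to the members. *Adamtsl4*, a microfibril-binding protein, fell 3.44-fold and 2.66-fold, and *Adamtsl3* had log2 ratios of 0.13 and 0.30.

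The RNA of matrix substrates was read beside that of the proteases. Of 13 substrates that passed the filter, 8 rose and 2 fell in *Hmga2*+/+ MEF, and 7 rose and 2 fell in *Hmga2*-/- MEF. The median log2 ratios were 0.84 and 0.79. Versican (*Vcan*), the substrate of ADAMTS1, 4, 5, 9 and 15, had 24.1 RPKM in *Hmga2*+/+ Ctrl, 49.4 RPKM in *Hmga2*+/+ TGFB1, 32.1 RPKM in *Hmga2*-/- Ctrl and 55.6 RPKM in *Hmga2*-/- TGFB1. Aggrecan (*Acan*) was low in Ctrl, with 16 reads (0.039 RPKM) in *Hmga2*+/+ Ctrl and 10 reads (0.024 RPKM) in *Hmga2*-/- Ctrl, and stood at 1.15 and 0.609 RPKM in the TGFB1 libraries. Fibrillin-1 (*Fbn1*), bound by ADAMTS10, rose in both genotypes (log2 1.24 and 0.99), and *Fbn2* did not pass the threshold in either (log2 -0.07 and -0.49). Decorin (*Dcn*) and nidogen-2 (*Nid2*) fell in both. The chondrocyte marker list holds *Acan* too. Its summed level was 3.40 and 6.02 RPKM in *Hmga2*+/+ Ctrl and TGFB1 and 2.09 and 6.21 RPKM in *Hmga2*-/- Ctrl and TGFB1, mostly from *Sox9*, and the defining cartilage genes *Matn1* and *Col9a1* were at or near 0. Of the 4 endothelial markers, *Kdr* rose and *Tek* fell on TGFB1 in both genotypes, and *Pecam1* and *Cdh5* were at most 0.048 RPKM. The part of such cells in the ADAMTS values was not tested.

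Genes that control ADAMTS activity were less uniform. *Timp3*, the main inhibitor of ADAMTS4 and 5, had 84.4 RPKM in *Hmga2*+/+ Ctrl, 110.0 RPKM in *Hmga2*+/+ TGFB1, 104.4 RPKM in *Hmga2*-/- Ctrl and 145.1 RPKM in *Hmga2*-/- TGFB1, below 1.5-fold in each comparison. Of the 5 inhibitor and clearance genes that passed the filter, 1 rose (*Timp1*, log2 2.97 and 3.08) and 2 fell (*Timp2* and *Reck*) in both genotypes, and the clearance receptor gene *Lrp1* stood between 57.3 and 62.9 RPKM. *Furin*, whose product removes the propeptide of ADAMTS precursors, rose 1.53-fold in *Hmga2*+/+ and 2.13-fold in *Hmga2*-/- MEF, and among 4 convertases 2 rose in *Hmga2*+/+ and 1 in *Hmga2*-/- MEF. *B3glct*, which extends the O-fucose on thrombospondin repeats, fell 1.91-fold and 1.78-fold, and the other 3 genes of this modification did not pass the threshold. Of 4 cell surface partners, *Cd44* rose and *Mmp14*, the gene of the membrane protease MT1-MMP, fell in both genotypes. Of 11 other metalloproteinases, 3 rose in *Hmga2*+/+ and 4 in *Hmga2*-/- MEF and none fell. *Adam12* had the largest RPKM increase of these, with 0.642 RPKM in *Hmga2*+/+ Ctrl, 31.2 RPKM in *Hmga2*+/+ TGFB1, 0.986 RPKM in *Hmga2*-/- Ctrl and 34.7 RPKM in *Hmga2*-/- TGFB1.

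**Figure D5:**
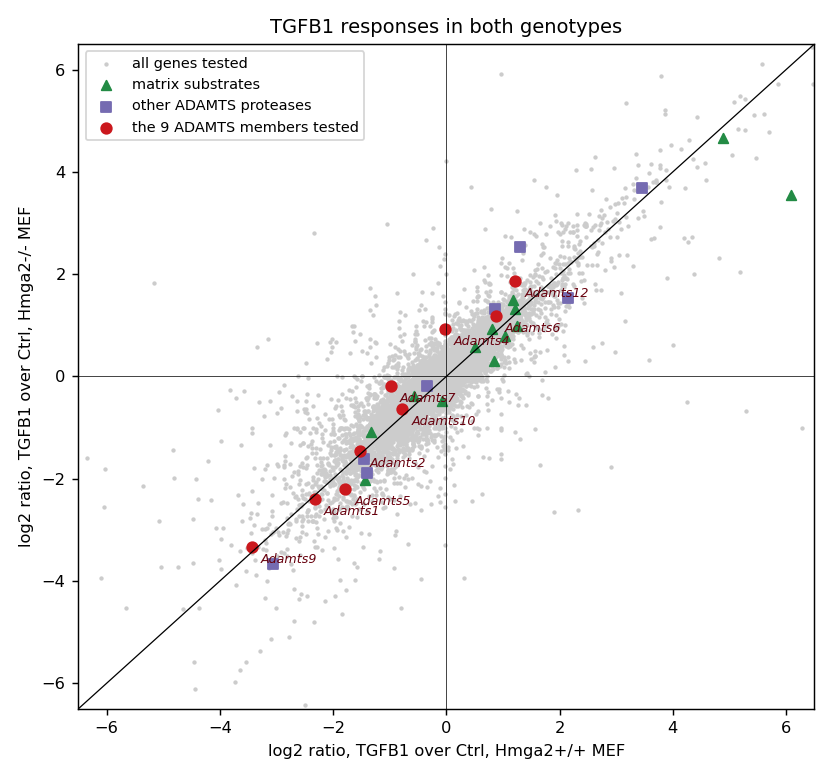
Log2 ratio of TGFB1 over Ctrl in *Hmga2*+/+ MEF (x axis) against that in *Hmga2*-/- MEF (y axis), with genes as grey points. Genes with either log2 ratio beyond 6.5 in size, 94 of the 12938, are not drawn. The 9 ADAMTS genes are in red and labelled, and lists of related genes are in other colours and markers. The black diagonal marks equal ratios. *Adamts4*, *Adamts7* and *Adamts12* lie above the diagonal by 0.66 to 0.96, and *Adamts9* is the lowest of the 9 in both genotypes, at -3.43 and -3.33.

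Likeness to a member was measured as the Euclidean distance between log2 RPKM over the 4 libraries, each gene centred on its own mean, among 10741 genes that reached 1 RPKM in any library. Nearest to *Adamts1* were *Dkk2*, a secreted Wnt modulator (distance 0.083), *Smad9*, a SMAD of the BMP branch (0.094), and *Podxl2* (0.107). Nearest to *Adamts5* were *Kcnab2* (0.086), the homeobox gene *Msx1* (0.091) and the arrestin gene *Arrb1* (0.092). For *Adamts9* the nearest were further off, *Plekha6* (0.290), *Tcea3* (0.362) and *Ypel1* (0.375). Distances were not scaled to the size of the change, and only 85 and 111 of 12938 genes had lower TGFB1 ratios than *Adamts9* in *Hmga2*+/+ and *Hmga2*-/- MEF. Its TGFB1 values also rested on 115 and 114 reads. *Msx1* had 19.0 RPKM in *Hmga2*+/+ Ctrl, 5.84 RPKM in *Hmga2*+/+ TGFB1, 22.0 RPKM in *Hmga2*-/- Ctrl and 5.13 RPKM in *Hmga2*-/- TGFB1, with the *Hmga2*-/- libraries at both ends as for *Adamts5*. *Msx1* was picked for likeness to *Adamts5* over these same 4 libraries, so the shared order is no separate result. These distances describe 4 libraries.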

How the data were processed

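Strand-specific RNA-seq of total RNA was analysed for 4 MEF libraries, 1 per *Hmga2* genotype and treatment. The authors used Trimmomatic for trimming and HISAT2 2.1.0 for mapping to mm10, counted reads on the annotated strand with HOMER and deposited RPKM for 63759 UCSC transcripts, rounded to 3 decimals. The other deposited column used was the transcript length in bases, given by the authors. The file header names exons and the methods name genes as the counted feature, and whether duplicates were pooled is not stated.

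Transcripts were named from GENCODE vM21 genes that covered at least 50% of their span on their own strand (57708 of 63759, 90.5%), and the one with the longest gene body was used per gene. Reads were recovered from the deposited RPKM steps of transcripts under 600 bases. All of the 1486 to 1505 low values tested per library lay within 0.1 of a whole read. Intervals are exact (Clopper-Pearson for ratios, Poisson for levels), and those for differences of responses are normal approximations on log reads with 0.5 added. A count test was not run, as there are no replicates. Named genes were the 10 members, the listed pathway genes, the checks of genotype and treatment, and the 3 genes nearest to the 2 most abundant members and to the member with the largest ratio. Members and lists were chosen with earlier results of these data known. Steps were tested on simulated data. Python 3.11.15, numpy 2.4.6, pandas 2.3.3, scipy 1.17.1 and matplotlib 3.10.9 were used. Alternatives changed the value added to RPKM, the scaling, the fold threshold, the transcript per gene and the filter.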

Additional observations from a re-analysis of the deposited data

Results flagged for a closer look

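The TGFB1 to Ctrl log2 ratio of *Adamts4* had opposite signs in the 2 genotypes, -0.029 in *Hmga2*+/+ MEF and 0.927 in *Hmga2*-/- MEF. The first value lay within counting error of 0, so only the *Hmga2*-/- value is a rise. The difference between the genotypes was not tested, because each condition holds a single library.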

How the results depend on the processing

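Counts of the 9 genes past 1.5-fold were recomputed for 5 comparisons and both directions under 8 alternative settings, and 72 of 80 counts stayed within 1.5 times the reported count. The 72 include counts that were 0 as reported and under every setting. These are genes higher in untreated *Hmga2*-/- MEF, lower in *Hmga2*-/- MEF on TGFB1, and on the lower side of the difference of responses. With a 2-fold threshold, 1 gene rose on TGFB1 in *Hmga2*+/+ MEF (*Adamts12*), 1 was higher in *Hmga2*-/- MEF on TGFB1 (*Adamts4*), and 0 were left on the higher side of the difference of responses. That threshold also left 4 of the 6 genes that fell on TGFB1 in *Hmga2*+/+ MEF. In *Hmga2*-/- MEF it left 2 of the 3 that rose and 4 of the 5 that fell. The count of genes lower in untreated *Hmga2*-/- MEF, which is *Adamts7* alone, became 0 with 0.1 or 1 added to every RPKM, with a 2-fold threshold, with the transcript of highest mean RPKM, and with a filter of at least 1 RPKM. *Adamts7* also left the genes that fell in *Hmga2*+/+ MEF and the difference of responses with 1 added (-0.36 and 0.30) or with the 1 RPKM filter, and *Adamts10* left those that fell in *Hmga2*-/- MEF with 1 added (-0.53). Without a filter *Adamts15* joined 3 counts. Of 225 log2 ratios of single genes, 204 stayed within their counting interval and 0 of those past 1.5-fold changed sign. The transcript of greatest length was the reported one for all 9 genes, so the 45 ratios and the counts of that setting could not move. The transcript of highest mean RPKM was also the reported one for *Adamts1*, *Adamts2*, *Adamts4*, *Adamts5* and *Adamts12*. Adding 1 to RPKM moved 19 of 45, all towards 0, and adding 0.1 moved 2, both of *Adamts9*. No paired analysis was possible because each condition holds a single library. Depth limited *Adamts15*, with at most 8 reads, and left 114 to 239 reads behind each *Adamts7* value and each *Adamts9* value on TGFB1.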
